A study of Saccharomyces cerevisiae with 4 samples.

Results

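The genes described here encode nuclear subunits of the yeast respiratory chain and of the ATP synthase, though not all of them. They were chosen by membership of the complexes, as 38 genes among the 6301 ORFs in the deposited table. The rule uses no measured value, and all 38 genes had values on enough arrays to be tested. By complex they comprised 3 NADH dehydrogenase genes, 4 genes of complex II (succinate dehydrogenase), 9 of complex III (the cytochrome bc1 complex), 2 cytochrome c genes, 9 of complex IV (cytochrome c oxidase) and 11 of the ATP synthase. *Saccharomyces cerevisiae* S288c, a laboratory strain that carries a transposon insertion in the regulator gene HAP1, was grown at 30 °C in synthetic complete medium (SC, nitrogen-rich) to mid log phase. Nitrogen-poor cells were moved from SC to minimal medium (MM) that lacked amino acids and adenine and held 0.025% ammonium sulfate, and were kept there for 12 h. The lower nitrogen supply, the missing amino acids and adenine, and the 12 h of further incubation cannot be told apart in this design. Complementary DNA of both media, primed with a mixture of oligo-dT and a multi-targeted primer (MTP) designed to bind many yeast transcripts, was hybridized together on 4 two-color arrays of PCR-amplified ORFs, with 2 arrays in each dye orientation.

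Each array gave a single log2 poor-over-rich ratio per ORF, positive where the transcript was higher in nitrogen-poor than in nitrogen-rich medium. A ratio holds no transcript level, so genes are compared only by how much they changed. The mRNA came from whole cultures, in which a change in the share of cells that express a gene and a change in RNA per cell could not be told apart. Replicates were independent reverse transcription reactions, and the number of cultures behind them is not given in the sources used here, so the errors and p-values measure the spread between reactions and arrays. Between 5548 and 5992 ORFs carried a value on an array, and 5956 with values on at least 3 arrays were tested with limma, with Benjamini-Hochberg adjustment over all of them. The median ratio was -0.034 and -0.031 on the arrays with MM in Cy5 by title, and 0.06 and 0.11 on those with SC in Cy5. Where 4 values are listed, the arrays are given as MM in Cy5 (replicates 1 and 2) and then SC in Cy5 (replicates 1 and 2), named by their titles. The channel descriptions state the opposite dyes, but the same pairs of arrays.

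Yeast has no proton-pumping NADH dehydrogenase of the mammalian kind. Electrons from NADH enter the chain through single-polypeptide enzymes of the inner mitochondrial membrane, those from succinate enter through complex II, and both reach coenzyme Q. Complex III passes them to cytochrome c and complex IV passes them to oxygen, while complexes III and IV move protons across the membrane and the ATP synthase uses the returning protons to make ATP. Most subunits are encoded in the nucleus, but the core subunits of complex IV, cytochrome b of complex III and part of the membrane sector of the ATP synthase are encoded in mitochondrial DNA. Many of the nuclear genes are known to be repressed by glucose and activated by the Hap2/3/4/5 complex, and a few have isoforms used at low oxygen.

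Of the 38 genes, 30 rose and 4 fell in nitrogen-poor medium at an adjusted p of 0.05 in limma, and 4 did not pass. Over all ORFs tested, 33.8% passed as higher and 31.5% as lower, or 65.3% in either direction. The median log2 ratio of the 38 genes was 0.84, compared with 0.03 over all ORFs tested. All 30 genes that rose were positive and all 4 that fell were negative on every array that measured them. The calls rest on these same values, so this agreement of sign is not separate evidence. It was not counted over all ORFs called. A mean log2 ratio of at least 1, a doubling, was reached by 14 of the 38 genes and by 5.59% of all ORFs tested. Values were present on all 4 arrays for 32 of the genes and on 3 arrays for 6 (SDH1, QCR2, CYC7, COX9, ATP3 and ATP17). The complexes differed in how uniformly their genes moved. All 11 ATP synthase genes and all 9 complex III genes rose, whereas complexes II and IV held genes that rose, genes that fell and genes that did not pass.

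**Figure D1:**
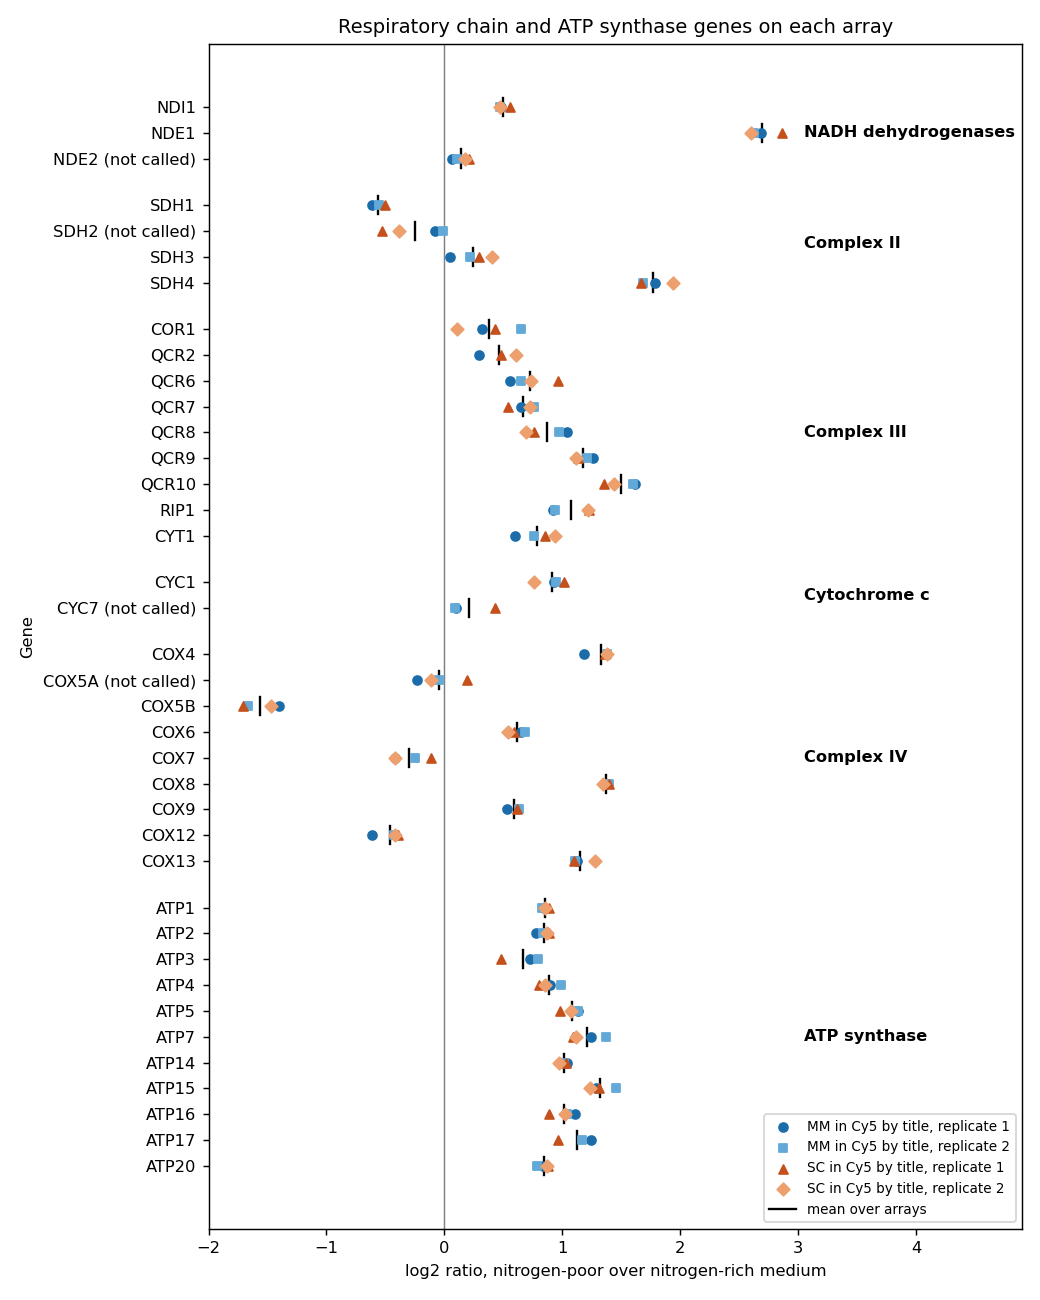
Log2 poor-over-rich ratio (horizontal axis) for each of the 38 genes (rows, grouped by complex), with 1 symbol per array and a black line at the mean over the arrays. The ATP synthase genes lie close together between 0.48 and 1.45, NDE1 stands apart at the right between 2.60 and 2.87, and COX5B lies farthest to the left between -1.71 and -1.40.

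Of the 3 NADH dehydrogenase genes, NDE1 rose by far the most, NDI1 rose less and NDE2 did not pass. NDE1 (YMR145C), for an external enzyme that oxidizes cytosolic NADH, had values of 2.68, 2.63, 2.87 and 2.60 on the 4 arrays, the highest of any of the 38 genes. Its mean log2 ratio was 2.69 ± 0.12 (SD, n = 4 arrays, limma adjusted p = 8.13e-07), a 6.47-fold increase that ranked 32 from the top among the 5956 ORFs tested. NDI1 (YML120C), for the internal enzyme that oxidizes NADH of the matrix, lay between 0.47 and 0.56 on the 4 arrays, with a mean of 0.49 ± 0.04 (SD, n = 4 arrays, limma adjusted p = 0.000238). NDE2 (YDL085W), for the other external enzyme, was at 0.07, 0.11, 0.21 and 0.18. It was positive on every array but did not pass the threshold, with a mean of 0.14 ± 0.07 (SD, n = 4 arrays, limma adjusted p = 0.061). It passed with a dye orientation term in the fit (limma adjusted p = 0.0285), with its own variance (0.0454) and with same-numbered arrays averaged (0.037), whereas with any single array left out the adjusted p lay between 0.0907 and 0.151.

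Within complex II, SDH1 fell, SDH2 did not pass, and both membrane anchor genes rose. SDH1 (YKL148C), for the flavoprotein subunit that binds succinate, was measured on 3 arrays at -0.62, -0.55 and -0.51, and fell with a mean of -0.56 ± 0.06 (SD, n = 3 arrays, limma adjusted p = 0.000773). SDH2 (YLL041C), for the iron-sulfur subunit, was at -0.08, -0.01, -0.53 and -0.39, so that its arrays split by dye orientation without overlap. Its mean of -0.25 ± 0.25 (SD, n = 4 arrays) did not pass (limma adjusted p = 0.0564). It passed without the first (0.0361) or the second (0.0385) array with MM in Cy5, with the orientation term (0.005) and with same-numbered arrays averaged (0.00777). Without the first array with SC in Cy5 its mean was -0.16 (limma adjusted p = 0.191). The membrane anchor genes moved upward. SDH4 (YDR178W) had values of 1.79, 1.68, 1.66 and 1.94 and a mean of 1.77 ± 0.13 (SD, n = 4 arrays, limma adjusted p = 2.56e-06), a 3.40-fold increase. SDH3 (YKL141W), for the other anchor subunit, rose far less, with values of 0.05, 0.21, 0.29 and 0.40 and a mean of 0.24 ± 0.15 (SD, n = 4 arrays, limma adjusted p = 0.0236). Its adjusted p rose to 0.0694 without the second array with MM in Cy5, to 0.0786 without the first and to 0.0833 without the second array with SC in Cy5, and to 0.0825 with its own variance. The values of SDH3 and SDH4, whose proteins together anchor the complex in the membrane, did not overlap.

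Each of these complex II genes except SDH2 has a paralog on the array, and all 3 paralogs rose. SDH9 (YJL045W), which encodes a second form of the flavoprotein subunit, was at 0.93, 0.73, 1.24 and 1.36, while SDH1 was below 0 wherever it was measured. SHH3 (YMR118C), a paralog of SDH3, had values of 4.07, 3.75, 3.77 and 3.51 and a mean of 3.78 ± 0.23 (SD, n = 4 arrays, limma adjusted p = 8.13e-07), a 13.7-fold increase and the ninth highest ratio of all ORFs tested. SHH4 (YLR164W), a paralog of SDH4, was at 2.15, 2.33, 2.02 and 2.13. In each of the 3 pairs the paralog had the higher ratio on every array with both values. SDH3 minus SHH3 was -3.54 ± 0.38 on the log2 scale (SD, n = 4 arrays) and SDH4 minus SHH4 was -0.39 ± 0.19 (SD, n = 4 arrays), each with an exact two-sided sign-flip permutation p = 0.13. SDH1 minus SDH9 was -1.52 ± 0.23 (SD, n = 3 arrays, exact two-sided sign-flip permutation p = 0.25). These were part of 6 pairs compared, and 0.13 and 0.25 are the smallest p-values that 4 and 3 arrays allow in this test, so no pair could pass 0.05. Adjusted over the 6 pairs, they were 0.188 and 0.25. Spots of whole ORFs can share signal between similar sequences, and how far this applied to these pairs was not tested.

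All 9 complex III genes rose, over a range from 0.38 to 1.50 in mean log2 ratio. QCR10, QCR9 and RIP1 had the highest means. QCR10 (YHR001W-A), for a small supernumerary subunit, had values of 1.61, 1.59, 1.35 and 1.43 and a mean of 1.50 ± 0.13 (SD, n = 4 arrays, limma adjusted p = 5.27e-06). QCR9 (YGR183C), for another small subunit, lay between 1.12 and 1.26. RIP1 (YEL024W), for the Rieske iron-sulfur protein that takes electrons from ubiquinol, was at 0.92, 0.94, 1.23 and 1.22, with the pairs of each dye orientation close together and apart from each other. CYT1 (YOR065W), for cytochrome c1, which receives electrons from the Rieske protein, lay between 0.59 and 0.94, with a mean of 0.79 ± 0.15 (SD, n = 4 arrays). The supernumerary subunit genes QCR8 (YJL166W), QCR6 (YFR033C) and QCR7 (YDR529C) had means of 0.87, 0.73 and 0.67. Like RIP1, QCR6 and CYT1 had both values with MM in Cy5 below both values with SC in Cy5. QCR8, QCR9 and QCR10 had them above. Genes of other complexes also split by orientation, among them SDH3 (0.05 and 0.21 against 0.29 and 0.40) and ATP7 (1.24 and 1.37 against 1.09 and 1.12). The share of all ORFs that split in this way was not counted. The genes of the core proteins, which face the matrix, had the lowest ratios of the complex. QCR2 (YPR191W) was at 0.29, 0.48 and 0.60 on the 3 arrays that measured it, with a mean of 0.46 ± 0.16 (SD, n = 3 arrays, limma adjusted p = 0.00432). COR1 (YBL045C) was at 0.32, 0.65, 0.43 and 0.11, the widest spread in the complex, with a mean of 0.38 ± 0.22 (SD, n = 4 arrays, limma adjusted p = 0.00976). With each gene's own variance the adjusted p was 0.0751 for COR1 and 0.0648 for QCR2, whereas the 7 other complex III genes passed there too. Neither core gene overlapped QCR8, QCR9, QCR10 or RIP1 on any array, but the ranges of COR1 and QCR2 overlapped each other and those of QCR6, QCR7 and CYT1.

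Of the forms of cytochrome c, iso-1 passed the test and iso-2 did not. CYC1 (YJR048W), for iso-1-cytochrome c, the main form in air, had values of 0.93, 0.95, 1.02 and 0.76 and a mean of 0.91 ± 0.11 (SD, n = 4 arrays, limma adjusted p = 2.98e-05). CYC7 (YEL039C), for iso-2-cytochrome c, which is known to be used more when oxygen is scarce, was at 0.10, 0.09 and 0.43 on 3 arrays and did not pass (mean 0.21 ± 0.19, SD, n = 3 arrays, limma adjusted p = 0.0958). Its mean was 0.095 without the first array with SC in Cy5 (limma adjusted p = 0.338), and it passed with the dye orientation term (mean 0.26, limma adjusted p = 0.0127). CYC1 lay above CYC7 on each of the 3 arrays with both values, by 0.76 ± 0.15 on the log2 scale (SD, n = 3 arrays, exact two-sided sign-flip permutation p = 0.25).

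Complex IV held 5 genes that rose, 3 that fell and 1 that did not pass. Its mean log2 ratios, from -1.56 to 1.37, spanned the widest range of the complexes. COX8 (YLR395C), COX4 (YGL187C) and COX13 (YGL191W), all for nuclear subunits around the catalytic core, rose most. COX8 had values of 1.36, 1.39, 1.40 and 1.34, a mean of 1.37 ± 0.03 (SD, n = 4 arrays, limma adjusted p = 2.64e-06) and one of the smallest spreads of all 38 genes. COX4 was at 1.19, 1.38, 1.36 and 1.38, and COX13 at 1.13, 1.11, 1.10 and 1.27. COX6 (YHR051W) and COX9 (YDL067C) formed a middle group at means of 0.62 ± 0.07 (SD, n = 4 arrays) and 0.59 ± 0.05 (SD, n = 3 arrays), whose values overlapped. COX12 (YLR038C), for a subunit on the intermembrane space side, fell, with values of -0.61, -0.43, -0.39 and -0.42 and a mean of -0.46 ± 0.10 (SD, n = 4 arrays, limma adjusted p = 0.000661). COX7 (YMR256C) also fell, with values of -0.42, -0.25, -0.12 and -0.42 and a mean of -0.30 ± 0.15 (SD, n = 4 arrays, limma adjusted p = 0.00884), and its adjusted p was 0.0514 with its own variance. All values of COX12 and COX7 were negative and all values of the 5 genes that rose were positive, which follows largely from their calls.

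The largest decrease among the 38 genes was that of COX5B. Subunit V of cytochrome c oxidase exists in alternative forms, of which Va is the form used in air and Vb is known from low-oxygen growth. COX5B (YIL111W), for subunit Vb, had values of -1.40, -1.66, -1.71 and -1.47 and a mean of -1.56 ± 0.15 (SD, n = 4 arrays, limma adjusted p = 5.54e-06), a 2.95-fold decrease that ranked 119 from the bottom of the ORFs tested. COX5A (YNL052W), for subunit Va, was at -0.24, -0.05, 0.19 and -0.11 with a mean of -0.05 ± 0.18 (SD, n = 4 arrays), and did not pass (limma adjusted p = 0.602). Its sign turned to a mean of 0.012 without the first array with MM in Cy5. COX5A lay above COX5B on all 4 arrays, by 1.51 ± 0.32 on the log2 scale (SD, n = 4 arrays), or 2.85-fold (exact two-sided sign-flip permutation p = 0.13). NDE1 lay above NDE2 on all 4 arrays by 2.55 ± 0.10 (SD, n = 4 arrays), or 5.87-fold (exact two-sided sign-flip permutation p = 0.13), the widest gap among the 3 pairs within the 38 genes. In the pairs with a form used in air and a form known from low oxygen (COX5A and COX5B, CYC1 and CYC7), the form used in air thus had the higher ratio on every array with both values.

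**Figure D2:**
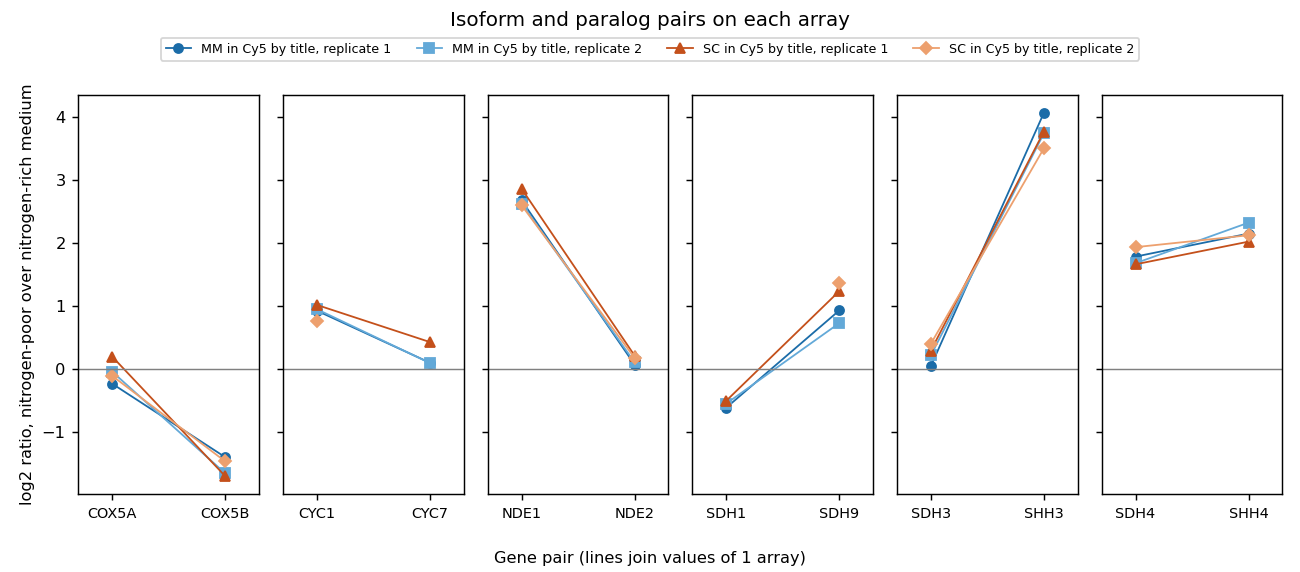
Log2 poor-over-rich ratio (vertical axis) for the members of 6 isoform or paralog pairs, with 1 symbol per array and a line that joins the values of the same array. All lines of COX5A to COX5B and of NDE1 to NDE2 go down, by 1.17 to 1.90 and by 2.43 to 2.65, whereas those of SDH3 to SHH3 go up, with SDH3 minus SHH3 between -4.03 and -3.11. CYC7 and SDH1 have no value on the second array with SC in Cy5.

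The 11 ATP synthase genes moved together, from a 1.59-fold to a 2.50-fold increase. Their mean log2 ratios had an SD of 0.19 between genes, compared with 0.36 in complex III and 0.98 in complex IV. This SD was 0.50 for the 2 cytochrome c genes, 1.03 in complex II and 1.38 for the 3 NADH dehydrogenase genes. The median SD between arrays was 0.08 for a gene of the ATP synthase. In the catalytic F1 sector, ATP1 (YBL099W), for the alpha subunit, was at 0.84, 0.83, 0.89 and 0.85, and ATP2 (YJR121W), for the catalytic beta subunit, at 0.78, 0.83, 0.89 and 0.87. Their means of 0.85 ± 0.03 and 0.84 ± 0.05 (SD, n = 4 arrays each) differed by less than the spread between arrays. In the central stalk that turns inside F1, ATP15 (YPL271W), for the epsilon subunit, had the highest mean of the complex, 1.32 ± 0.09 (SD, n = 4 arrays, limma adjusted p = 5.54e-06). ATP16 (YDL004W), for the delta subunit, was at 1.01 ± 0.09 (SD, n = 4 arrays), and ATP3 (YBR039W), for the gamma subunit, had the lowest mean, 0.67 ± 0.16 (SD, n = 3 arrays, limma adjusted p = 0.00101), from values of 0.73, 0.80 and 0.48. The peripheral stalk, which holds F1 still, was represented by ATP7 (YKL016C) at a mean of 1.21, ATP5 (YDR298C) at 1.08, ATP14 (YLR295C) at 1.01 and ATP4 (YPL078C) at 0.88. In the membrane sector, ATP17 (YDR377W) was at 1.12 ± 0.14 (SD, n = 3 arrays) and ATP20 (YPR020W), for a subunit that takes part in forming dimers, at 0.84 ± 0.04 (SD, n = 4 arrays). The gene means of the sectors overlapped, with medians of 0.85 for F1, 1.05 for the peripheral stalk and 0.98 for the 2 membrane sector genes.

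The ATP synthase had the highest median of all complexes on each array, and the order below it varied. The median over the ATP synthase genes was 1.04, 1.01, 0.89 and 0.97, above the complex III median of 0.65, 0.85, 0.85 and 0.73 on each array, of which the second was taken without QCR2, which had no value there. The complex IV median was 0.53, 0.63, 0.59 and 0.21, below that of complex III on each array. The last of these values was taken without COX9, and the last ATP synthase value without ATP3 and ATP17, which had no value on that array. The cytochrome c median was 0.51, 0.52, 0.72 and 0.76, the last from CYC1 alone and above that of complex III, and the NADH dehydrogenase median lay between 0.47 and 0.56. Complex II had medians of -0.02, 0.10, -0.11 and 0.40, the last without SDH1, which was not measured there, so that its median rests on genes that moved in opposite directions. The medians are descriptions and carry no test.

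**Figure D3:**
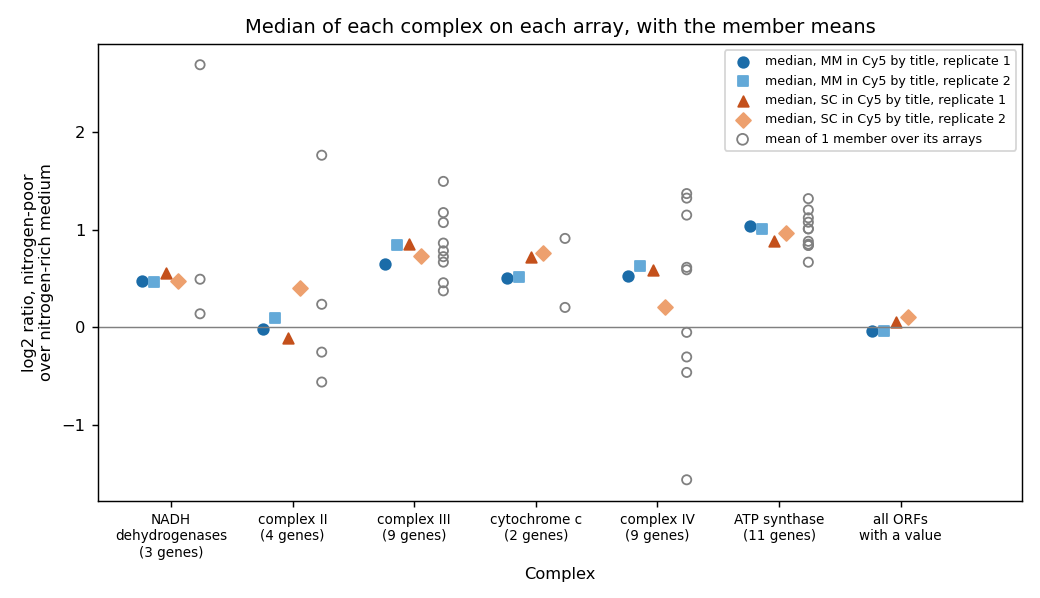
Median log2 poor-over-rich ratio (vertical axis) on each of the 4 arrays (filled symbols) for the genes of each complex, and for all ORFs with a value at the right, with open circles for the mean of each gene. The ATP synthase medians, from 0.89 to 1.04, lie above those of all other complexes on every array, while the open circles of complexes II and IV lie on both sides of 0.

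None of the 38 genes passed an adjusted p of 0.05 for a difference between dye orientations in limma, and of all ORFs tested 1 did (0.0168%). At an unadjusted p of 0.05 the orientation term was passed by 4 of the 38 genes and by 22.0% of all ORFs tested. The ratios were not centered for this term, so the offset of the array medians between orientations is part of it. SDH2 had the largest orientation difference of the 38 genes, 0.41 on the log2 scale (limma adjusted p = 0.134).

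Over the assembly genes of all complexes, 21 of the 38 tested rose and 6 fell, with a median log2 ratio of 0.19, compared with 0.84 over the subunit genes. Over all ORFs tested, 33.8% rose and 31.5% fell, with a median of 0.03. Of the 7 subunits encoded in mitochondrial DNA (COX1, COX2, COX3, COB, ATP6, ATP8 and OLI1), all were listed, but none carried a value on any of the 4 arrays. The same held for the small ATP synthase subunit genes TIM11, ATP18 and ATP19, which are not among the 38 subunit genes described above. Of 10 genes for complex III assembly and for the attachment of heme to cytochromes, 4 rose and 3 fell, shares near those over all ORFs. The highest mean was that of CBP4 (YGR174C), an assembly factor of complex III, at 0.88 ± 0.07 (SD, n = 4 arrays), and the lowest that of CBP1 (YJL209W), which stabilizes the mitochondrial mRNA of cytochrome b, at -0.58 ± 0.05 (SD, n = 4 arrays). Of 22 genes for complex IV assembly and for translation of its mitochondrial mRNAs, 18 were tested, of which 8 rose and 3 fell, with a median of 0.14. They ranged from COX14 (YML129C) at 0.56 ± 0.08 (SD, n = 4 arrays) to CMC1 (YKL137W) at -0.55 ± 0.29 (SD, n = 3 arrays), and CMC1 did not pass with its own variance (limma adjusted p = 0.123).

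For assembly of the ATP synthase, 6 of 7 genes rose, beside 33.8% of all ORFs tested. The median of the 7 was 0.23 against 1.01 over the subunit genes. The highest mean was that of FMC1 (YIL098C), needed for F1 assembly in heat, at 0.67 ± 0.13 (SD, n = 3 arrays). The lowest was that of ATP22 (YDR350C), which did not pass, at 0.12 ± 0.16 (SD, n = 4 arrays). All 3 complex II assembly genes tested rose, from 0.42 for SDH7 (YDR511W) to 0.86 for SDH8 (YBR269C). STF2 (YGR008C), named as a stabilizing factor of the ATP synthase inhibitor, rose with values of 1.44, 1.59, 1.54 and 1.55. The inhibitor gene INH1 (YDL181W) was at 0.02, -0.04, 0.24 and 0.75 and did not pass (limma adjusted p = 0.146), with a mean of 0.24 that was 0.071 without the second array with SC in Cy5 (0.474). It passed with same-numbered arrays averaged (0.0247). STF1, for a related inhibitor, was listed without a value.

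Of 11 coenzyme Q synthesis genes, 5 rose and 4 fell, beside 33.8% and 31.5% of all ORFs tested, from COQ3 (YOL096C) at 0.49 ± 0.07 to COQ11 (YLR290C) at -0.62 ± 0.09 (SD, n = 4 arrays each). Among 4 genes for other enzymes that feed electrons into the chain, the 3 tested rose. The remaining gene was positive on the 2 arrays that measured it, too few to be tested. CYB2 (YML054C), the lactate dehydrogenase that reduces cytochrome c, was highest of those tested, at 1.66, 1.53, 1.38 and 1.41. DLD1 (YDL174C), a D-lactate dehydrogenase, rose by 0.24 ± 0.09 (SD, n = 4 arrays, limma adjusted p = 0.0119), and its adjusted p was 0.0705 without the second array with MM in Cy5.

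Of the 6 regulator genes, HAP4 rose, HAP1 fell and 4 did not pass, beside 33.8% of all ORFs tested that rose and 31.5% that fell. HAP4 (YKL109W), the activating subunit of the Hap complex, was at 0.62, 0.32, 0.07 and 0.19, with a mean of 0.30 ± 0.23 (SD, n = 4 arrays, limma adjusted p = 0.0264). Without the first array with MM in Cy5 its mean was 0.20 (limma adjusted p = 0.0694). The adjusted p rose to 0.0789 without the second array with MM in Cy5, to 0.0539 after centering the arrays, to 0.0514 after scaling them and to 0.122 with its own variance. The DNA-binding subunit genes HAP2 (YGL237C), HAP3 (YBL021C) and HAP5 (YOR358W) did not pass, with ranges of -0.33 to -0.0018, -0.11 to 0.15 and -0.36 to 0.45. HAP2 passed as lower after centering (limma adjusted p = 0.0398), scaling (0.0431), averaging of same-numbered arrays (0.0355) and with the orientation term (0.0298), whereas its mean was -0.085 without the second array with MM in Cy5 (0.422). HAP1 (YLR256W), a heme-responsive activator, fell slightly, at -0.24 ± 0.06 (SD, n = 4 arrays, limma adjusted p = 0.00705), and ROX1 (YPR065W), the repressor of low-oxygen genes, was at -0.17, -0.01, -0.15 and 0.05 and did not pass (limma adjusted p = 0.34).

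**Figure D4:**
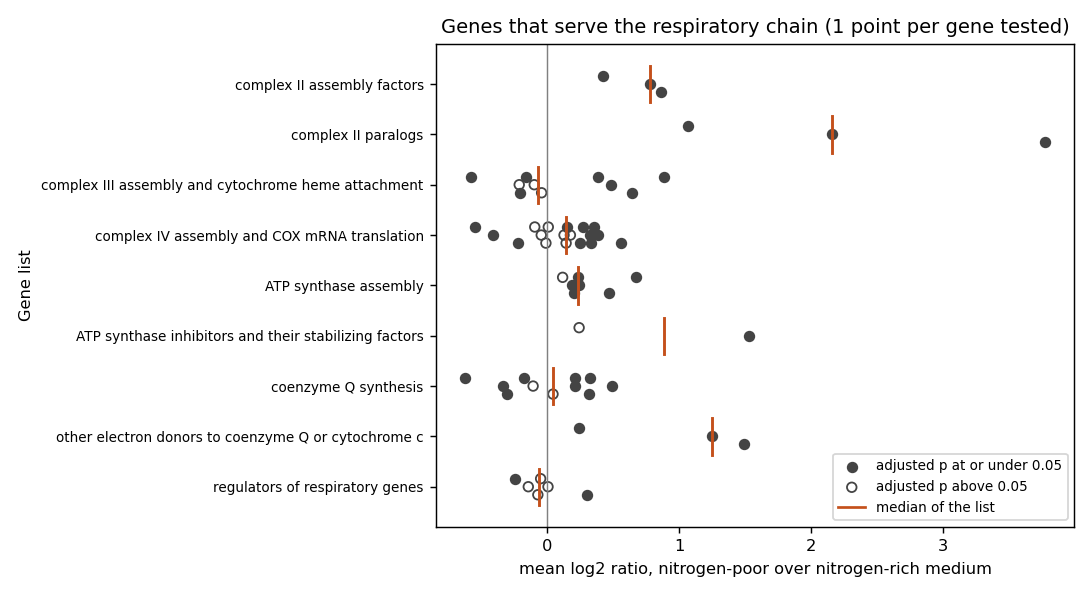
Mean log2 poor-over-rich ratio (horizontal axis) of the genes that serve the respiratory chain, with 1 circle per gene tested, filled where the adjusted p was at or under 0.05, and a line at the median of each list. The 3 complex II paralogs reach from 1.06 to 3.78, while the medians of the complex III, complex IV and ATP synthase assembly lists lie between -0.07 and 0.23.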

How the data were processed

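The authors scanned the arrays, subtracted the local background, scaled the channels to equal means over well measured spots (foreground well above the spread of background pixels) and deposited the results as log2 ratios. Other ORFs are empty, and ratios are relative to the mean of each array. All 4 columns correlated positively with the nitrogen-poor over nitrogen-rich levels in the rows used of the study's supplementary table. Between 1737 and 1924 ORFs were compared per array, with slopes between 0.98 and 1.04. These values set the direction and the log base. Which medium carried which dye is not settled, since titles and channel descriptions differ.

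The mean ratio of each ORF measured on 3 or more arrays was fitted in limma 3.58.1 under R 4.3.3, with no other coefficient. The fit was first run on simulated ratios with known changes. Their noise was independent between arrays, without dye or array effects, so that run does not test the calls under such effects. Isoform differences were taken within arrays and tested with scipy 1.17.1. BAGEL, which the study used, was not run. Symbols came from the NCBI R64 gene table, which named 5801 of 6301 ORFs and all 38 members. The rule for the members uses no measured value, but the members, gene lists and tests were chosen with earlier results of these data known. The named genes were all members, all genes of 5 short lists, and the highest and lowest gene of every other list. Planned promoter and protein sequences were not used here. The number of arrays limits the precision. Deviations of same-numbered arrays from their orientation means had r = 0.012 across 5231 ORFs.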

Additional observations from a re-analysis of the deposited data

Results flagged for a closer look

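Of 53 sets of 4 array values examined among the named genes, 4 had a single array far from the rest, and chance alone puts about 5% of sets past this limit. The gap to the nearest array, divided by the whole range, was 0.893 for COX4, where the first array with MM in Cy5 was lowest at 1.19, and 0.833 for COX12, where the same array was lowest at -0.61. It was 0.852 for COX13, with the second array with SC in Cy5 highest at 1.27, and 0.869 for NDI1, with the first array with SC in Cy5 highest at 0.56. All 4 genes kept their call with any single array left out.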

How the results depend on the processing

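Of the 34 members past the threshold, 30 kept their call and direction in every alternative that held a value for them (at most 13 alternatives), and SDH3, COR1, QCR2 and COX7 lost it in at least 1. Counts of members were 26 to 32 higher and 3 to 5 lower over all alternatives, and 3074 to 4479 of all ORFs were called. The study's threshold, applied here as an unadjusted limma p of 0.05 in the observed direction, called 4479 ORFs. By that limma p SDH2 (0.0187), CYC7 (0.0345), NDE2 (0.0204) and the regulator gene HAP2 (0.0453) passed too, whereas COX5A did not (0.275). With a replicate block on the numbers in the titles, 30 members were higher, 4 lower and 3501 ORFs called, and no member's call changed. Leaving out single arrays moved COX5A between -0.13 and 0.012, HAP3 between -0.045 and 0.043 and HAP5 between -0.22 and 0.053, none of which passed the threshold. After centering the arrays HAP3 was at -0.022 and after scaling at -0.019. The cause of these changes was not tested. No complex median moved by more than its spread between arrays, but leaving out a single array or centering could hardly move it that far. For complexes II and IV that spread includes the array without values for SDH1 and COX9. The isoform differences stayed within their own spread too, but leaving out a single array or centering cannot move such a mean that far. Without depth or intensities, the alternatives could not vary the background correction or the rule for well measured spots.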
